A study of Homo sapiens with 11 samples.

Results

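HCC78 cells, a human lung adenocarcinoma line that carries an S34F change in a single allele of U2AF1 and an SLC34A2-ROS1 fusion, were transduced with a doxycycline-inducible lentiviral construct for U2AF1, either wild-type (WT line) or S34F mutant (S34F line), with FLAG and 6xHA tags. The data described here are the differences in mRNA levels between doxycycline-treated and untreated cells, over both of these lines. They were measured in 7 of the 11 samples of the series. Doxycycline was given to 2 WT dox+ libraries and 2 S34F dox+ libraries, and not to 2 WT dox- libraries and 1 S34F dox- library. Libraries of the untransduced parental line and the U2AF1 crosslinking samples were left out. Of the 57773 genes in the deposited table, 20327 of them protein-coding, the members described are the 9299 protein-coding genes that averaged 5 FPKM or more over the 7 libraries (FPKM, fragments scaled to transcript length and to the mapped reads of the library). Doxycycline itself and the induced U2AF1 cannot be told apart in this design, since both constructs encode U2AF1 and no doxycycline-treated line without a construct was analysed here. Each line is a stable transduced derivative. The labels do not say whether replicates were separate cultures, so p-values measure the spread between these samples, which may be technical. The dose and duration of doxycycline for these libraries are not given in the sources used here.

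In a Tet-inducible vector, doxycycline binds a bacterial regulator protein made by the vector and allows it to switch on a promoter that mammalian cells do not use. Doxycycline is also an antibiotic of the tetracycline class, which blocks bacterial ribosomes and can act on the related ribosomes of mitochondria. U2AF1 is the small subunit of the U2 auxiliary factor, which recognises the AG dinucleotide at the 3′ end of introns, and the S34F change lies in a zinc finger of the protein. Genes of mitochondria, of translation and of the splicing machinery are therefore described as groups below.

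Sequencing depth cannot be given in reads, since the table holds no counts, but low FPKM values change in steps that give a relative depth, which was between 1 and 1.3 in the dox- and between 0.616 and 1.1 in the dox+ libraries (exact permutation test, two-sided, p = 0.114, 3 against 4 libraries). The number of genes of any type at 1 FPKM or above was 13661 to 14490 without and 15736 to 20896 with doxycycline, a difference without overlap (exact permutation p = 0.0857, with 0.0286 the smallest p that the 35 splits allow). The summed FPKM of olfactory receptor genes, which lung cells are not known to use, was 51.6 to 114.4 without and 142.7 to 380.8 with doxycycline (exact permutation p = 0.0857). Both quantities were highest in replicate 2 of each dox+ group. The olfactory sum was 250.3 (WT) and 380.8 (S34F) there, against 142.7 and 144.6 in replicate 1. Genes at 1 FPKM or above numbered 17716 and 20896 there, against 16053 and 15736 in replicate 1. Nuclear protein-coding genes made up 52.5 to 54.3% of TPM without and 46.7 to 51.9% with doxycycline (exact permutation p = 0.0571). These features moved with doxycycline in the same libraries as the gene changes below, and their part in those changes was not tested beyond the values given with them. Of 19 lung adenocarcinoma markers, 11 were members, and their summed FPKM was 9583 to 11703 without and 8699 to 10069 with doxycycline. No fibroblast, endothelial or squamous marker was a member, the summed FPKM of the 10, 9 and 8 markers in the table was at most 16.25, 11.69 and 11.26 in any library, and of 12 immune markers only CD68 was a member. In bulk RNA, fewer cells of a kind and less RNA per cell cannot be told apart.

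U2AF1 (ENSG00000160201.7), the gene that the construct carries, was examined first. Without doxycycline its FPKM was 111.5 and 109.9 in the WT line and 115.1 in the S34F line. With doxycycline it was 277.6 and 299.1 in the WT line and 164.4 and 222.8 in the S34F line, so that all 4 dox+ libraries lay above all 3 dox- libraries. The change was 1.14 ± 0.16 (SE) on the log2 scale (limma-trend with line as covariate, adjusted p = 0.0181), 1.39 in the WT line and 0.755 in the S34F line. The difference between the lines had an unadjusted p of 0.0404 and an adjusted p of 1. Here and throughout, a log2 change is that of scaled FPKM plus 1, dox+ minus dox-, and FPKM values are as deposited. The table does not separate endogenous from tagged transcripts. By the sample labels, the S34F allele made up 12% and 14% of U2AF1 transcripts once the WT construct was induced and 62% and 65% once the S34F construct was, with 33% in both WT dox- libraries and 28% in S34F dox-. The induced allele thus differed between the lines while total U2AF1 rose in both. The call was lost when any of the libraries other than S34F dox+ replicate 1 was left out, with log2 changes of 1.05 to 1.39.

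Among the 9299 members, 264 (2.84%) were higher and 137 (1.47%) were lower with doxycycline at an adjusted p under 0.05, which is called a change below, against 3.01% higher and 0.927% lower over all 15534 genes in the fit. Read against all genes, the share of members that rose was close to the background. The 4 dox+ libraries lay entirely above the 3 dox- libraries in 1227 members (13.2%) and entirely below in 1192 (12.8%), against 16.7% and 8.34% of all genes in the fit, and 260 of the 264 and 136 of the 137 called genes were among them. Before adjustment, p was under 0.05 in 1338 members with a rise and 1179 with a fall, 14.4% and 12.7% of members, against 16.9% and 8.20% of the genes in the fit. At least a 2-fold difference was reached by 38 genes that rose and 5 that fell, and the median log2 change was 0.70 over the genes that rose and -0.52 over those that fell, with 0.001 over all members. The counts depended on having all 7 libraries. Without WT dox- replicate 1 they were 36 higher and 19 lower, without WT dox- replicate 2 they were 106 and 59, and without S34F dox- they were 0 and 0. The last of these fits estimates the response of the WT line only, since the S34F line then has no uninduced library. Without WT dox+ replicate 1 they were 0 and 1, without WT dox+ replicate 2 they were 5 and 2, without S34F dox+ replicate 1 they were 165 and 45, and without S34F dox+ replicate 2 they were 81 and 22. None of the 401 called genes changed sign under any of the alternatives run, the one on gene span covering only those with a span. This was largely fixed beforehand. A gene without overlap between states cannot change sign when a library is left out or a line is taken alone. Upper-quartile scaling gave 222 higher and 214 lower, or 50.9% of calls higher in place of 65.8%.

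The called genes moved in the same direction in both lines. All 264 genes that rose and all 137 that fell did so in each line taken alone, which a test on both lines together favours. Over all members, the responses of the 2 lines, which have no library in common, had the same sign in 6752 genes (72.6%), with Pearson's r = 0.62 and Spearman's rho = 0.60 (across genes, and genes do not count as replicates). No member passed the test of a difference between the responses (limma-trend, smallest adjusted p = 0.974), with 270 members at an unadjusted p under 0.05, or 2.90%, against 3.18% of all genes in the fit and 0.0193% of these after adjustment. This test has little precision, as the S34F line has 1 uninduced library, and it does not show that the responses were equal. In the WT line alone 0 members were called (limma-trend, 2 against 2), and 12 were in the S34F line alone with the spread of all 7 libraries.

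**Figure D1:**
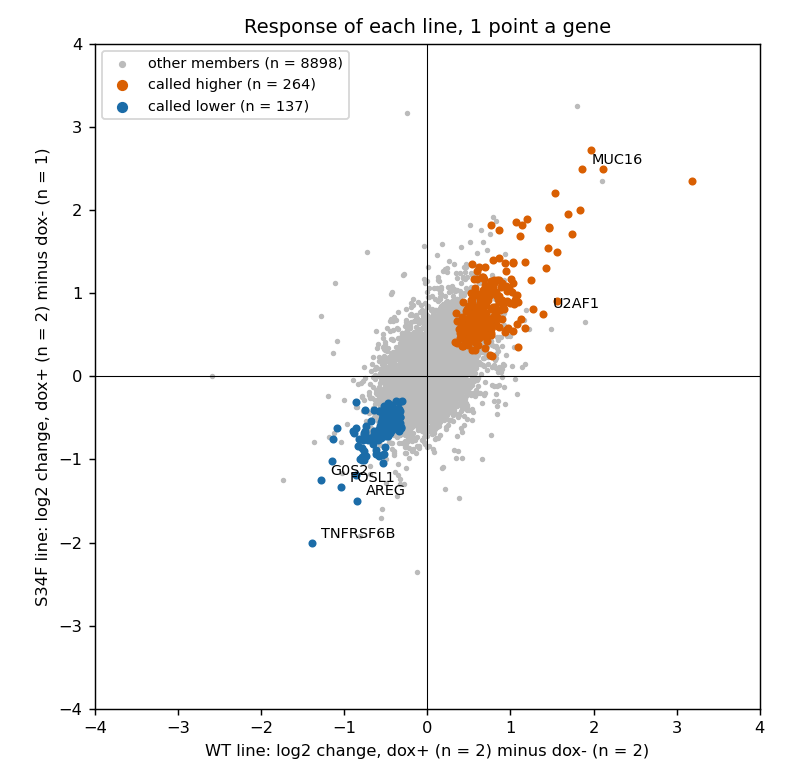
Log2 change of each member in the WT line (x axis) and in the S34F line (y axis), dox+ minus dox-, on scaled FPKM plus 1. The 264 genes called higher lie in the upper right and the 137 called lower in the lower left, and over all 9299 members the 2 responses correlate with r = 0.62.

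The 12 members that rose most, among genes called without overlap, included a mucin, a metallothionein, a calpain and several genes of multicopy families. Members had to average 5 FPKM over 4 dox+ and 3 dox- libraries, which favours low genes that rise. RP11-508N12.4, RP11-347C12.1, MT1F, BLID, GPR132 and ATG9B passed only through dox+ libraries. Their dox- means were 0.563, 1.79, 1.98, 3.52, 3.74 and 4.51 FPKM. Among the largest falls, PPP1R14C, CCL2 and TMEM156 passed only through dox- libraries, with dox+ means of 4.03, 3.82 and 4.01. FPKM values are listed in the order WT dox- replicates 1 and 2 and S34F dox-, then WT dox+ replicates 1 and 2 and S34F dox+ replicates 1 and 2. MUC16, a very large cell surface mucin whose shed part is the antigen CA125, had an FPKM of 15.8, 18.8 and 15.2 without and 72.3, 57.1, 77.1 and 102.2 with doxycycline. The groups were far apart, and the log2 change was 2.11 ± 0.18 (adjusted p = 0.00472). CAPN8, a calpain protease known from gastric mucosa, was at 8.36, 19.7 and 11.96 without and 45.5, 40.8, 51.01 and 45.7 with doxycycline, a log2 change of 1.79 (adjusted p = 0.017). Its uninduced libraries varied more than its induced ones. ATG9B, a membrane protein of autophagosome formation, was at 3.17, 4.96 and 5.39 without and 14.8, 11.9, 28.99 and 27.1 with doxycycline, with both S34F dox+ libraries above both WT dox+ libraries and a log2 change of 1.81 (adjusted p = 0.00805). ZBTB20, a zinc finger transcriptional repressor, was at 6.62, 7.13 and 8.39 without and 21.3, 19.7, 27.1 and 35.7 with doxycycline, with a log2 change of 1.60 (adjusted p = 0.00472). GPR132, a G protein-coupled receptor, was at 3.89, 3.35 and 3.99 without and 13.3, 10.1, 16.9 and 14.97 with doxycycline, with a log2 change of 1.59 (adjusted p = 0.00645). Neither gene had an induced library near the uninduced range.

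The other genes of this set need care in reading. NPIPB4 and NPIPB5, of a primate-specific family with many near-identical copies, were at 41.6, 29.2 and 37.6 without and 115.3, 118.5, 98.2 and 153.9 with doxycycline and at 87.6, 74.3 and 93.9 without and 223.7, 214.7, 225.1 and 326.3 with doxycycline, with log2 changes of 1.73 (adjusted p = 0.00793) and 1.49 (adjusted p = 0.00645). ANKRD36C, an ankyrin repeat gene with close copies, was at 18.6, 22.1 and 14.8 without and 67.4, 54.95, 38.99 and 47.5 with doxycycline, with a log2 change of 1.54 (adjusted p = 0.0047). Reads of such copies can be split between them, so the change cannot be assigned to a single copy. BLID, an intronless gene inside a long noncoding host transcript, was at 3.11, 4.56 and 2.89 without and 19.1, 15.9, 20.4 and 29.3 with doxycycline, with a log2 change of 2.27 (adjusted p = 0.0069). The counting is not stated to use strand, so overlapping transcripts cannot be separated from it. RP11-347C12.1 rose from 1.15, 2.97 and 1.24 to 9.55, 13.7, 7.83 and 16.8, with a log2 change of 2.27 (adjusted p = 0.0181). RP11-508N12.4 was listed at 0 in both WT dox- libraries, at 1.69 in S34F dox- and at 4.48, 13.8, 22.5 and 6.88 with doxycycline, with an adjusted p of 0.0265.

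**Figure D2:**
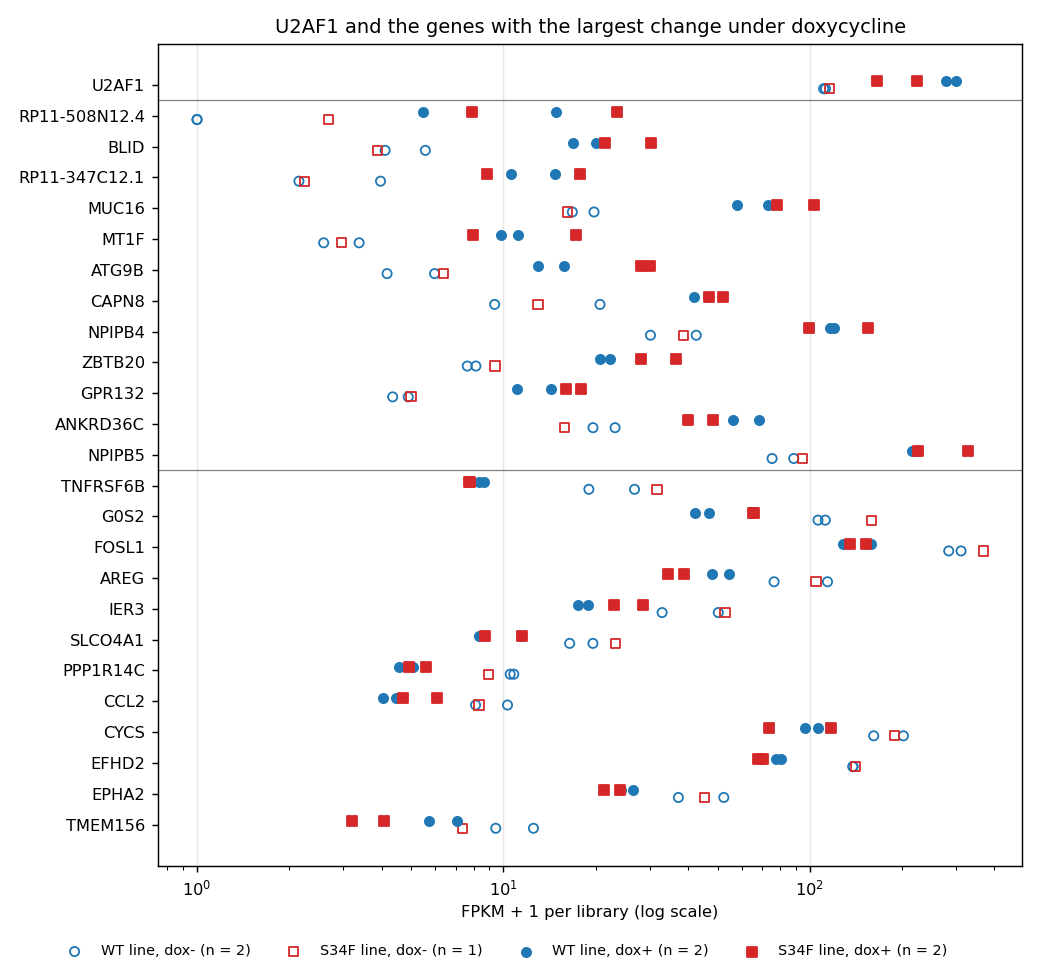
FPKM plus 1 of U2AF1 (top), the 12 members with the largest rise and the 12 with the largest fall, by library (log axis), among called genes without overlap. Open symbols are dox-, filled symbols dox+, circles the WT line and squares the S34F line. In each gene the filled and the open symbols do not overlap.

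Mucins were looked at as a group after MUC16 had been seen. Of 15 mucin genes in the table, 4 were members, and all 4 were called higher, with a median log2 change of 0.88, against 0.001 over all members. MUC4, a membrane mucin that can associate with ERBB2, was at 105.4, 128.3 and 115.9 without and 224.4, 200.3, 202.7 and 287.4 with doxycycline, a log2 change of 0.96 (adjusted p = 0.0198). MUC20, a membrane mucin, was at 117.8, 145.7 and 140.1 without and 214.2, 201.6, 273.9 and 264.8 with doxycycline, a log2 change of 0.80 (adjusted p = 0.0138). MUC1, the mucin of most glandular epithelia, was at 136.6, 188.9 and 155.3 without and 239.4, 231.0, 227.4 and 220.6 with doxycycline, a log2 change of 0.56 (adjusted p = 0.0385). No induced library overlapped an uninduced one in any of the 4. The summed FPKM of the 15 genes was 380.6 to 485.8 without and 697.0 to 889.2 with doxycycline.

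Genes that extend over long stretches of the genome rose more often than short genes, by count. Gene span was taken as the longest annotated transcript span in the deposited splicing tables (hg19), which was found for 8652 members (93%). The median log2 change was -0.081 for the 1375 members under 10 kb, -0.062 from 10 to 20 kb, -0.012 from 20 to 50 kb, 0.050 from 50 to 100 kb, 0.134 from 100 to 200 kb and 0.212 for the 548 members of 200 kb or more. Under 10 kb 14 genes rose and 39 fell, and at 200 kb or more 54 rose (9.85%) and 1 fell (0.182%). The median span was 86.6 kb for the genes that rose and 16.0 kb for those that fell, with 34.8 kb over all members. Both lines showed this gradient, with Spearman's rho of 0.27 in the WT line and 0.247 in the S34F line across genes, given as a description. Level moved as well, from a median log2 change of 0.114 at 5 to 10 FPKM to -0.118 at 100 FPKM or more. The gene span gradient ran alongside the larger number of detected genes in dox+ libraries, and the part of one in the other was not tested. When a smooth trend on gene span and mean level was removed from each library, an alternative chosen after seeing the data, 182 members were called higher and 141 lower, of which 142 and 72 were among those called without this step.

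**Figure D3:**
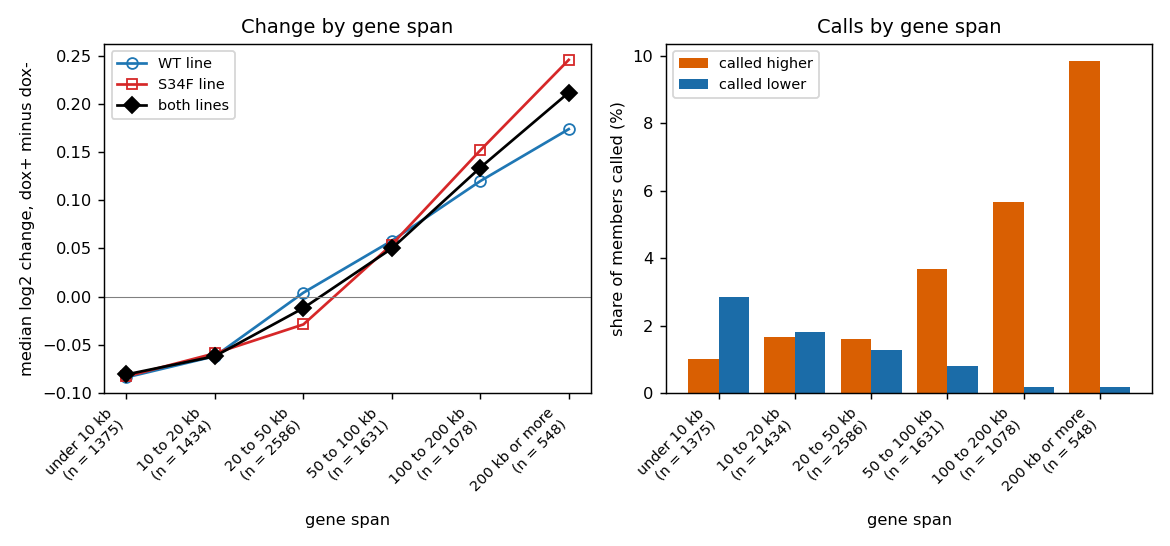
Left, median log2 change, dox+ minus dox-, of members in 6 bins of gene span (kb), for the WT line, the S34F line and both together. Right, share of members in each bin called higher or lower (%). The median goes from -0.081 under 10 kb to 0.212 at 200 kb or more, and the share called higher reaches 9.85%.

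The 5 members of 200 kb or more with the smallest p, picked after their values were seen, were ZBTB20, KMT2C, SYNE1, AKAP13 and LAMA3. SYNE1, which encodes the giant nesprin-1 that links the nuclear envelope to actin, was at 16.3, 19.3 and 19.2 without and 38.9, 36.2, 34.7 and 41.6 with doxycycline, a log2 change of 1.03 (adjusted p = 0.00805). AKAP13, a scaffold for protein kinase A, was at 54.4, 59.7 and 59.1 without and 95.4, 91.9, 92.4 and 95.5 with doxycycline, a log2 change of 0.71 (adjusted p = 0.00813). Both genes had narrow ranges in each state. LAMA3, the alpha chain of the epithelial laminin-332, was at 118.5, 125.3 and 116.9 without and 189.2, 179.2, 202.7 and 190.9 with doxycycline, a log2 change of 0.68 (adjusted p = 0.0091). With the span and level trend removed, the log2 changes were 1.27 for ZBTB20, 0.77 for KMT2C, 0.77 for SYNE1 and 0.57 for LAMA3, and all 4 were still called.

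Chromatin modifiers, most of them long genes with a median span of 129 kb, belonged to this side of the response. Of 33 members of the list, 6 rose and 0 fell, 28 had a log2 change above 0, and the median was 0.201. KMT2A, a methyltransferase for lysine 4 of histone H3, was at 18.9, 19.03 and 16.3 without and 35.97, 32.5, 36.3 and 38.1 with doxycycline, a log2 change of 0.97 (adjusted p = 0.00854). BPTF, the largest subunit of the NURF remodelling complex, was at 53.98, 58.4 and 58.96 without and 85.6, 90.00, 86.2 and 87.1 with doxycycline, a log2 change of 0.62 (adjusted p = 0.0116). In both genes the induced and uninduced libraries did not overlap. The other 4 that rose were the chromodomain helicases CHD6 and CHD9 and the histone methyltransferases ASH1L and SETD2, with log2 changes of 0.70, 0.51, 0.60 and 0.40. KMT2C, KMT2D and KMT2E, further genes of the KMT2 group that the list held under older names that did not match, also rose, by 1.01, 0.76 and 0.66. With the span and level trend removed, 2 of the 32 list genes with a span were called, KMT2A and BPTF, and the median was 0.143.

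The 12 members that fell most, among genes called without overlap, included an AP-1 subunit, a growth factor, a receptor tyrosine kinase and a chemokine. G0S2, an inhibitor of the lipase that starts triglyceride breakdown, had the smallest p of all members. Its FPKM was 111.3, 105.3 and 157.5 without and 45.7, 41.1, 64.8 and 64.01 with doxycycline, a log2 change of -1.27 ± 0.08 (adjusted p = 0.00125), and it stayed called in 6 of 7 fits with a library left out. FOSL1, which encodes the AP-1 subunit FRA1, was at 310.6, 283.0 and 366.8 without and 126.9, 157.4, 134.0 and 151.6 with doxycycline, a log2 change of -1.16 (adjusted p = 0.00671). AREG, a ligand of the epidermal growth factor receptor, was at 75.4, 113.2 and 103.7 without and 47.1, 53.3, 33.3 and 37.8 with doxycycline, a log2 change of -1.11 (adjusted p = 0.0267). No induced library of FOSL1 or AREG reached an uninduced one. EPHA2, an ephrin receptor tyrosine kinase, was at 36.2, 51.4 and 44.2 without and 23.2, 25.4, 23.04 and 20.4 with doxycycline, a log2 change of -0.86 (adjusted p = 0.0229). TNFRSF6B, a soluble decoy receptor for FAS ligand, was at 18.00, 25.8 and 30.7 without and 7.63, 7.35, 6.79 and 6.72 with doxycycline, with a log2 change of -1.64 (adjusted p = 0.00793), and it shares a locus with a readthrough transcript of RTEL1, so its reads are uncertain.

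IER3, an immediate early gene linked to cell survival, was at 31.9, 49.3 and 51.8 without and 17.8, 16.5, 27.5 and 21.98 with doxycycline, a log2 change of -1.09 (adjusted p = 0.0181). CCL2, a monocyte chemokine and the only gene called among 21 members of the NF-kB target list, was at 9.31, 7.11 and 7.32 without and 3.47, 3.05, 5.06 and 3.70 with doxycycline, a log2 change of -0.90 (adjusted p = 0.0422). The groups were close to each other in these FPKM values for CCL2, without overlap. EFHD2, a calcium-binding protein, had very even values of 137.1, 137.5 and 139.7 without and 79.4, 76.5, 69.5 and 66.6 with doxycycline, a log2 change of -0.87 (adjusted p = 0.00642). CYCS, which encodes cytochrome c of the respiratory chain, was at 201.0, 160.6 and 188.0 without and 95.7, 105.1, 72.8 and 115.9 with doxycycline, a log2 change of -0.89 (adjusted p = 0.0361). The remaining 3 of the 12 were the organic anion transporter SLCO4A1, the phosphatase inhibitor PPP1R14C and the membrane protein gene TMEM156, with log2 changes of -0.99, -0.98 and -0.86. TMEM156 was not called in any fit with a library left out. The same held for SETD2, IER5, EIF4EBP1, SHMT2, MTHFD2, PUF60, SF3B4, PHF5A, NPM1, FBL, RPL23A, MRPS24, MRPS15, CYC1 and TRAP1. It also held for PSMD7, SDF2L1, AURKA, HIST1H1E, CALD1, IFI27 and ADAM17, all of them named as called in this text. No gene was called in all 7 of these fits.

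Among 22 immediate early genes that were members, 0 rose and 4 fell, and 21 had a log2 change below 0, with a median of -0.38. Besides FOSL1 and IER3 these were MYC and IER5. MYC, the transcription factor that drives growth genes, was at 114.4, 143.4 and 143.3 without and 84.2, 84.9, 91.99 and 94.1 with doxycycline, a log2 change of -0.58 (adjusted p = 0.0243), and no induced library reached an uninduced one. IER5 fell by 0.55 on the log2 scale (adjusted p = 0.0377). The median of the list ranged from -0.60 to -0.16 when a library was left out. For the 14 genes with a span it was -0.279 after the trend was removed, with 2 called lower. CCND1, which encodes the G1 cyclin D1 and was not on the list, was picked after its values were seen. It was at 135.7, 134.4 and 116.7 without and 84.1, 88.8, 60.8 and 62.4 with doxycycline, a log2 change of -0.73 (adjusted p = 0.0107).

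Genes for making ribosomes were shifted to lower levels. A list of 147 ribosome biogenesis genes was written after first results had been seen, so its counts are a description. All 147 were members, 24 fell and 1 rose, 138 had a log2 change below 0, and the median was -0.308, with -0.306 in the WT line and -0.332 in the S34F line. Summed FPKM of the list was 9853 to 11888 without and 7939 to 8774 with doxycycline. NPM1, which encodes the abundant nucleolar protein nucleophosmin, was at 2054, 1844 and 2006 without and 1459.6, 1596, 1453 and 1347 with doxycycline, a log2 change of -0.40 (adjusted p = 0.0434). FBL, which encodes the methyltransferase fibrillarin of box C/D snoRNPs, was at 180.1, 165.6 and 176.8 without and 133.6, 127.8, 125.0 and 130.2 with doxycycline, a log2 change of -0.40 (adjusted p = 0.0346). TBL3, of the small subunit processome, was at 23.5, 20.7 and 17.5 without and 11.95, 10.8, 9.93 and 10.8 with doxycycline, a log2 change of -0.80 (adjusted p = 0.0181). All 3 genes fell in both lines and without overlap. MDN1, a very large AAA protein that matures the large subunit, was the single gene of the list that rose, at 12.5, 11.2 and 12.5 without and 19.2, 18.5, 17.4 and 23.7 with doxycycline, a log2 change of 0.66 (adjusted p = 0.0388). With the span and level trend removed, the median of the 135 genes with a span was -0.290, 14 fell and 0 rose.

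The proteins of the ribosome themselves shifted less. Of 79 cytosolic ribosomal protein genes, 77 had a log2 change below 0 and 1, RPL23A, was called, at -0.30. The median was -0.123, near the median of -0.118 over all 997 members of at least 100 FPKM, and it was -0.014 with the span and level trend removed. Their summed FPKM was 89062 to 89512 without and 74604 to 83430 with doxycycline. Mitochondrial ribosomal protein genes lay lower, with 70 of 77 below 0 and a median of -0.258, which was -0.241 for the 67 genes with a span after the trend was removed. In this list 2 genes fell and 0 rose, and with the trend removed 0 were called, with MRPS24 having no span. MRPS24, a small subunit protein, was at 56.5, 50.6 and 53.5 without and 34.2, 32.5, 39.4 and 39.7 with doxycycline, a log2 change of -0.55 (adjusted p = 0.0315). MRPS15, also of the small subunit, was at 113.6, 98.9 and 117.7 without and 76.1, 84.7, 82.7 and 74.1 with doxycycline, a log2 change of -0.45 (adjusted p = 0.0445). The summed FPKM of the 77 genes was 3923 to 4248 without and 3288 to 3557 with doxycycline, a range without overlap.

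**Figure D4:**
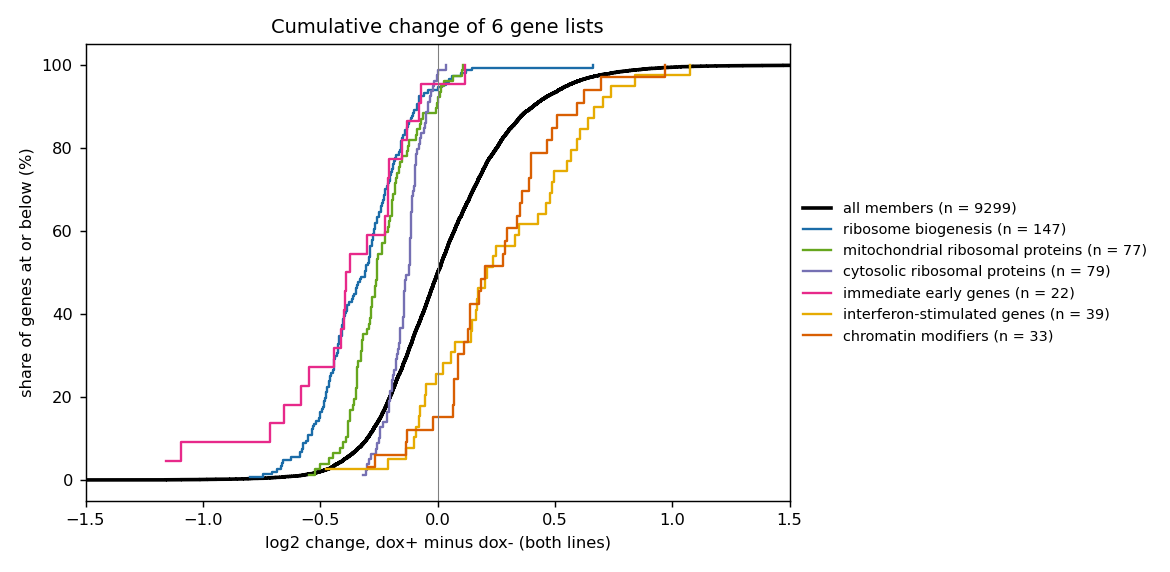
Cumulative share of genes (%) at or below each log2 change, dox+ minus dox-, for all 9299 members and 6 gene lists. The curves of ribosome biogenesis (147 genes), mitochondrial ribosomal proteins (77) and immediate early genes (22) lie left of all members, with medians of -0.308, -0.258 and -0.381, and those of interferon-stimulated genes (39) and chromatin modifiers (33) lie right of it.

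Mitochondria were examined further because the antibiotic can reach their ribosomes. None of the 13 mRNAs that the mitochondrial genome encodes was called (limma-trend, unadjusted p under 0.05 in 0 higher and 1 lower genes), with a median log2 change of -0.141 that ranged from -0.267 to -0.033 when a library was left out. Of the 13, 10 were below 0 and 3 above. The 1 lower gene was MT-ND2, with a log2 change of -0.34 (adjusted p = 0.198) and no overlap between states, and MT-CO1 had the largest rise. MT-CO1, a subunit of cytochrome c oxidase, was at 6328, 7151 and 6987 without and 8923, 7416, 6498 and 9579 with doxycycline, a log2 change of 0.26 ± 0.15 (adjusted p = 0.317), with overlapping groups. Of 77 nuclear genes for respiratory chain subunits, 0 rose and 3 fell, ATP5D, SDHB and CYC1, with log2 changes of -0.40, -0.43 and -0.46. The list median of -0.072, which ranged from -0.097 to -0.038 when a library was left out, became 0.001 with the span and level trend removed, with 2 genes called lower. Among 18 mitochondrial chaperones and proteases, TRAP1 fell by 0.38 on the log2 scale, and 0 of the 17 with a span were called with the trend removed. HSPD1, the chaperonin HSP60, was at 479.8, 369.6 and 398.3 without and 312.5, 348.8, 308.4 and 302.6 with doxycycline, and its log2 change of -0.34 (adjusted p = 0.0994) did not pass.

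The ATF4 program, which cells switch on under amino acid shortage and mitochondrial stress, held called genes in both directions. Of 29 members, 2 rose and 4 fell, with a median of -0.142. NUPR1, a small stress-induced chromatin protein, was at 3.19, 6.56 and 5.85 without and 11.8, 11.2, 15.00 and 18.1 with doxycycline, a log2 change of 1.25 (adjusted p = 0.0272). DDIT4, an inhibitor of mTORC1 signalling, was at 37.1, 49.9 and 27.2 without and 69.7, 56.8, 62.7 and 60.6 with doxycycline, a log2 change of 0.81 (adjusted p = 0.0426). The groups did not overlap in these genes. SHMT2 and MTHFD2, enzymes of mitochondrial one-carbon metabolism, fell, by 0.42 and 0.47 on the log2 scale, as did the amino acid transporter SLC7A5, by 0.72, and the translation repressor EIF4EBP1, by 0.34. ATF4 itself was at 155.4, 197.7 and 171.3 without and 163.4, 145.0, 158.2 and 160.7 with doxycycline and asparagine synthetase, ASNS, at 14.6, 19.9 and 18.04 without and 18.8, 17.3, 20.5 and 19.99 with doxycycline, with log2 changes of -0.13 (adjusted p = 0.447) and 0.13 (adjusted p = 0.537) and overlapping groups. After the span and level trend was removed, 2 of the 23 members with a span were called higher and 0 lower, with a median of -0.12. SHMT2 and MTHFD2 no longer passed, and SLC7A5 and EIF4EBP1 have no span.

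Few genes of the proteasome, of the unfolded protein response or of the heat shock response were called. Of 39 proteasome genes, 37 had a log2 change below 0, 0 rose and 3 fell, with a median of -0.223. These 3 were the 19S lid subunit PSMD7, the catalytic subunit PSMB6 and the activator subunit PSME3, at log2 changes of -0.44, -0.42 and -0.52. The proteasome median was -0.150, with 0 called, when the span and level trend was removed. In the unfolded protein response list SDF2L1, a chaperone component of the endoplasmic reticulum, fell by 0.61 on the log2 scale as 1 of 28 members, and the median was -0.143, with a range of -0.179 to -0.087 when a library was left out. No gene was called among 20 heat shock genes (unadjusted p under 0.05 in 3 higher and 6 lower genes) or among 20 cytosolic tRNA synthetases (1 and 3), with medians of -0.150 and -0.164. The heat shock median ranged from -0.242 to -0.066 when a library was left out. With the trend removed, 1 unfolded protein response gene was called higher and 1 lower, and 1 heat shock gene was called higher.

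Several partners of U2AF1 at the 3′ splice site fell. Of 25 members of this list, 4 fell and only U2AF1 rose, and the median was -0.162. U2AF2, the large subunit that binds the polypyrimidine tract next to U2AF1, was at 182.1, 174.5 and 148.2 without and 133.6, 134.4, 95.95 and 110.6 with doxycycline, a log2 change of -0.43 (adjusted p = 0.0374). PUF60, a factor related to U2AF2, was at 58.5, 57.8 and 58.5 without and 42.5, 41.1, 43.1 and 45.4 with doxycycline, a log2 change of -0.42 (adjusted p = 0.0361). The values of both genes were without overlap between states. SF3B4 and PHF5A, subunits of the SF3B complex that contacts the branch point, fell by 0.41 and 0.51 on the log2 scale. With the span and level trend removed, the log2 changes of U2AF2, PUF60, SF3B4 and PHF5A were -0.33, -0.34, -0.32 and -0.47, none of them called, while U2AF1 was at 1.26 and called. The median of the 23 genes of the list with a span was then -0.043. Of 42 SR protein and hnRNP genes, HNRNPAB fell, at 295.2, 261.0 and 265.9 without and 192.3, 199.3, 182.7 and 183.5 with doxycycline, a log2 change of -0.49 (adjusted p = 0.0214), and the median of the list was -0.106, which was -0.028 for the 41 genes with a span after the trend was removed. Of 20 nonsense-mediated decay genes, only the kinase SMG1 was called. It rose, at 22.9, 20.4 and 22.6 without and 33.7, 33.5, 36.1 and 48.5 with doxycycline, a log2 change of 0.74 (adjusted p = 0.0328). The list itself leaned lower, with 13 of the 20 genes below 0 and a median of -0.177. At an unadjusted p under 0.05 (limma-trend), 2 of its genes were higher and 5 lower. With the span and level trend removed, the median of this list was -0.114. SMG1 has close copies on the same chromosome, so its reads may be shared.

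Few cell cycle genes were called. Of 40 mitosis genes 33 had a log2 change below 0, 0 rose and 2 fell, with a median of -0.207 that ranged from -0.275 to -0.127 when a library was left out. UBE2S, the ubiquitin-conjugating enzyme of the anaphase-promoting complex, was at 197.3, 189.6 and 204.2 without and 113.1, 113.6, 98.3 and 107.3 with doxycycline, a log2 change of -0.83 (adjusted p = 0.00703). AURKA, the Aurora A kinase, was at 51.95, 41.9 and 46.9 without and 33.7, 29.2, 31.4 and 27.1 with doxycycline, a log2 change of -0.58 (adjusted p = 0.0409). In both genes the highest induced library was below the lowest uninduced one. No gene was called among 40 DNA replication genes (limma-trend, unadjusted p under 0.05 in 0 higher and 9 lower genes), with a median of -0.136 and a range of -0.199 to -0.075 when a library was left out. Among 56 replication-dependent histone genes 55 were below 0 with a median of -0.252, which ranged from -0.375 to -0.140, and HIST1H1E, a linker histone, fell by 0.42 on the log2 scale. Their summed FPKM overlapped, with 18146 to 25244 without and 17196 to 18327 with doxycycline. The span and level trend could be removed for only 5 of the histone genes. No gene was called among 18 p53 targets (unadjusted p under 0.05 in 1 and 3), and CDKN1A, the cyclin-dependent kinase inhibitor p21, was at 3.99, 6.29 and 6.13 without and 5.16, 6.93, 7.21 and 8.53 with doxycycline (adjusted p = 0.372).

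Genes of the extracellular matrix and of epithelial-mesenchymal transition went both ways. Of 34 members, 7 rose and 2 fell, with a median of 0.060. Without the span and level trend the counts were 6 and 3, with a median of -0.003. FN1, which encodes fibronectin, was at 57.4, 49.5 and 51.1 without and 95.3, 97.7, 147.3 and 125.7 with doxycycline, a log2 change of 1.09 (adjusted p = 0.0128), with the S34F dox+ libraries above the WT dox+ ones. VIM, the mesenchymal intermediate filament vimentin, was at 19.9, 12.1 and 42.1 without and 27.8, 28.1, 73.2 and 66.2 with doxycycline, a log2 change of 0.79 (adjusted p = 0.0409). The S34F dox- library of VIM exceeded both WT dox+ libraries, so the states overlapped across lines and were apart only within each line. The actin-associated genes TPM2, MYL9 and CALD1 rose by 0.77, 0.86 and 0.52 on the log2 scale, and so did the cytolinker DST, by 0.75, and LAMA3, whose values stand above. The hyaluronan receptor CD44 fell by 0.48 on the log2 scale. Of 11 matrix metalloproteinase and related protease genes, ADAM17 rose, by 0.56, and 0 of the 9 with a span were called with the trend removed. No gene was called among 32 epithelial junction genes (unadjusted p under 0.05 in 3 higher and 1 lower genes).

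More interferon-stimulated genes rose than fell. Of 39 members, 5 rose and 1 fell, 29 had a log2 change above 0, and the median was 0.21. XAF1, an antagonist of the apoptosis inhibitor XIAP, was at 6.33, 7.24 and 6.47 without and 11.8, 11.3, 13.5 and 14.6 with doxycycline, a log2 change of 0.84 (adjusted p = 0.0198). STAT2, a subunit of the interferon-activated transcription factor ISGF3, was at 10.8, 14.4 and 16.2 without and 20.9, 21.7, 23.9 and 26.99 with doxycycline, a log2 change of 0.71 (adjusted p = 0.0312). The groups were separate in both. SAMD9L and SAMD9 rose by 0.74 and 0.49, and IFI27 by 0.61. IFI44 fell, at 108.9, 95.4 and 90.9 without and 75.6, 77.1, 60.9 and 55.8 with doxycycline, a log2 change of -0.48 (adjusted p = 0.0361). With the span and level trend removed the counts were again 5 and 1, and the median was 0.185.

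Metallothioneins, small cysteine-rich proteins that bind zinc and copper, included 2 genes that rose. The list of metallothioneins and zinc genes had 7 members, of which 2 rose and 0 fell, with a median of 0.473. Of these members, MT1F, which rose, and SLC30A1, which was not called, passed only through their dox+ libraries. The log2 change of SLC30A1 is the median of the list, so this median rests on a gene favoured by the filter. MT1F was at 1.59, 2.38 and 1.96 without and 8.84, 10.1, 6.95 and 16.3 with doxycycline, a log2 change of 1.91 (adjusted p = 0.0181). MT1E was at 242.6, 161.0 and 133.0 without and 325.2, 357.2, 312.3 and 277.1 with doxycycline, a log2 change of 0.95 (adjusted p = 0.0263). No induced library of these genes overlapped an uninduced one. MT2A, the most abundant of them, was at 568.6, 401.5 and 414.2 without and 595.5, 649.8, 579.3 and 539.7 with doxycycline, and MT1X was at 14.1, 5.96 and 4.37 without and 15.1, 17.04, 20.8 and 12.9 with doxycycline, with log2 changes of 0.42 (adjusted p = 0.0881) and 1.14 (adjusted p = 0.0836) that did not pass and with overlapping groups. SLC30A1, the zinc exporter, was at 4.80, 3.60 and 3.96 without and 5.58, 6.15, 5.88 and 6.36 with doxycycline, a log2 change of 0.47 (adjusted p = 0.109). Metallothionein genes resemble each other, and reads may have been split between them. Their promoters are known for metal response elements, which the zinc-sensing factor MTF1 binds. The core motif was searched as TGCACNC and TGCGCNC on both strands of the 300 bases around each start that RefSeq gives on GRCh38.p14. MT2A held 8 matches, MT1H 8, MT1X 4 and SLC30A1 2. SLC39A10 held 0 and 1 at its 2 starts, and SLC30A10 and MTF1 held 0. MT1F and MT1E had no promoter in the table. These counts stand against at least 1 match in 40.8% and at least 4 in 0.928% of 15843 protein-coding genes. A match is a description of these letters only. A stretch of the plus strand upstream of each start is shown for the 2 member metallothioneins with a promoter at hand, with matches read on this strand in capitals. It covers chr16:56608431-56608460 for MT2A, from 153 to 124 bases before the start, and chr16:56682320-56682349 for MT1X, from 150 to 121 bases before it:
MT2A: TGCGCCCggcccagTGCGCGCggccgggtg
MT1X: TGCGCCCggcgctgggctcacgggttgctg

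The other lists had no called gene. They were 27 genes of cholesterol synthesis and uptake (limma-trend, unadjusted p under 0.05 in 3 higher and 0 lower genes, median 0.159), 34 of lysosome and autophagy (6 and 3, median 0.133), 32 of glycolysis and hypoxia (2 and 11, median -0.108) and 21 NRF2 targets (1 and 5, median -0.163). The cholesterol median went from -0.020 to 0.309 when a library was left out. Once the span and level trend was removed, 2 lysosome and autophagy genes were called higher, and 1 glycolysis and hypoxia gene and 2 NRF2 targets were called lower. In the plot of list medians both lines had the same sign in 31 of 32 lists, which are not independent of each other.

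**Figure D5:**
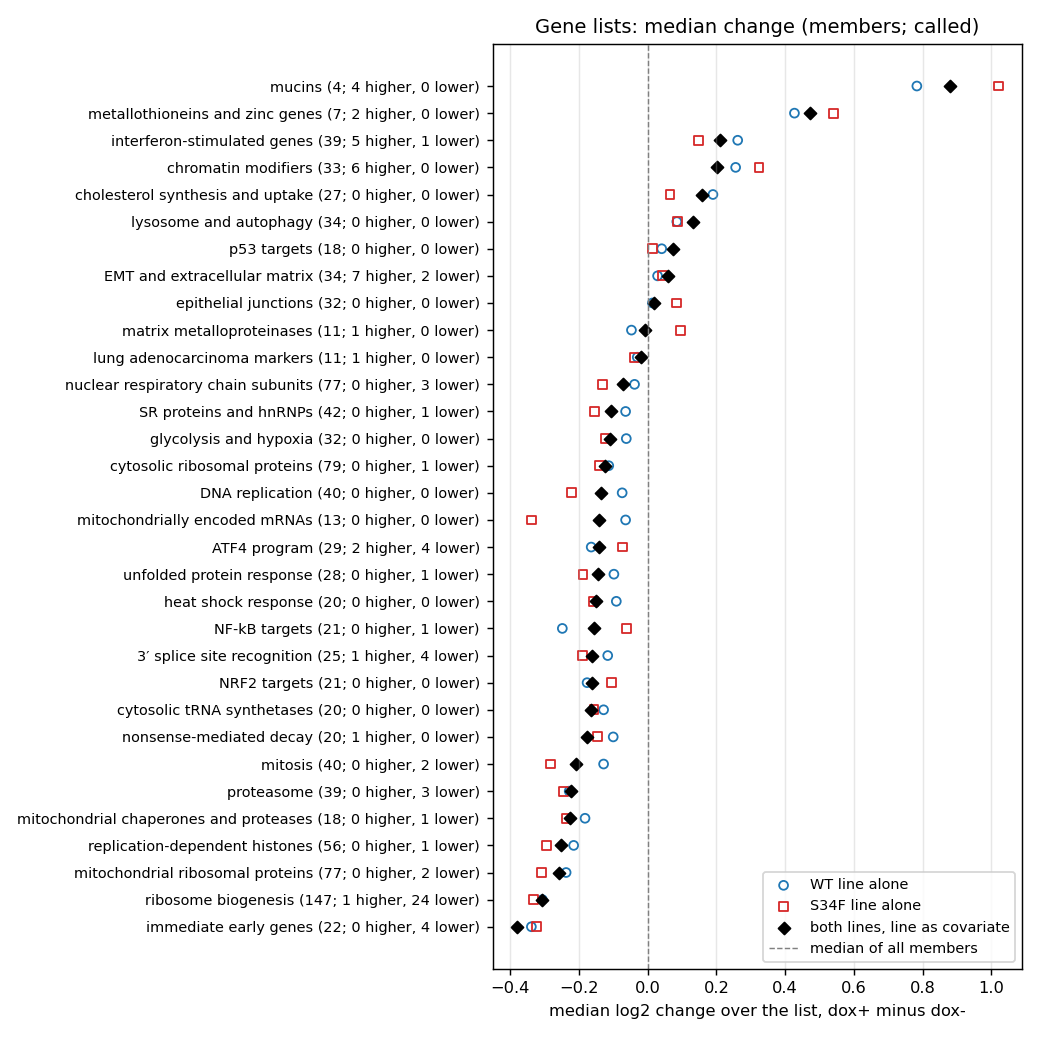
Median log2 change, dox+ minus dox-, of each gene list with at least 4 members (diamonds, both lines, open circles, WT line, open squares, S34F line), with the number of members and of called genes beside each name. The dashed line is the median of all members, 0.001. Mucins, a list of 4 members added after MUC16 had been seen and including it, lie highest at 0.878. Immediate early genes lie lowest at -0.381.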

How the data were processed

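Total RNA of HCC78-derived lines was sequenced in 9 libraries prepared with a stranded kit, of which 7 were compared. The authors aligned paired-end reads with STAR and computed FPKM and TPM per gene with RSEM (STAR 2.3.0 and RSEM 1.2.29 are among the tools in the submitters' processing notes), and the deposited table (hg19) holds FPKM and TPM but no counts. From the deposited splicing tables only the transcript start and end positions were used (a unit of its own, other than expression), and their columns of the authors' own comparisons were not used. Whether genes were counted by strand is not given in the sources used here.

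FPKM was divided by a median-ratio factor over the members, which was 0.982 to 1.02, and log2(value + 1) of the 15534 genes of any type with a mean of at least 1 FPKM was fitted with limma-trend (limma 3.58.1, R 4.3.3), with line as covariate, two-sided tests and Benjamini-Hochberg adjustment over all these genes. A pseudocount of 1 understates the change of low genes. The design was the planned one for a table without counts, and a count test was not possible. The fit was tested on simulated data with independent spread for each gene and library. The simulation held no trend on gene span or level and no uneven detection, so it cannot show how these affect the calls. The sets of genes were 34 lists, 2 lists added later (ribosome biogenesis and mucins), and by rule U2AF1, up to 12 called genes per direction with the largest change, no overlap and the same sign in each line, up to 2 genes per list and direction, and a few genes of known role. Genes named beyond this rule are said to have been picked after their values were seen, or complete the called genes of a list. Members and lists were chosen with earlier results of these data known. Replicate numbers did not pair the samples, since the correlations of the deviations of same-numbered samples were -0.053 to 0.002. Results on some items are not reported here.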

Additional observations from a re-analysis of the deposited data

How the results depend on the processing

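The counts of members higher and lower, 264 and 137, ranged from 0 to 165 higher and from 0 to 59 lower when a library was left out. They were 0 and 0 without replicate 2 of both WT dox+ and S34F dox+, an alternative chosen after seeing the data, 0 and 0 in the WT line alone and 8 and 4 in the S34F line alone. With fewer samples there is less residual precision by construction. TPM as deposited gave 119 and 81, quantile normalization 111 and 53, upper-quartile scaling 222 and 214, and a pseudocount of 5 gave 186 and 90. No minimum level gave 60 and 16, a fit over members only 495 and 355, and array weights 553 and 407. Without a covariate the counts were 350 and 229, with the effect of each line averaged 96 and 31, and with the parental libraries added 355 and 244. A replicate block, with numbers that the samples share by name only, gave 104 and 36 calls, of which 98 and 35 were among the 264 and 137. The cause of these shifts was not tested. The log2 change of U2AF1 ranged from 1.05 to 1.39 with a library left out, and it missed the threshold in the WT line alone (1.39), in the S34F line alone (0.755) and without both replicates 2 of dox+ (0.997). Members with a different response in the 2 lines numbered 0 in each of the 11 alternatives run for that count, with 129 to 506 at an unadjusted p under 0.05. Of 3054 values of 123 named genes under alternatives, none reversed, 1319 were no longer called and 4 became called. Most of these genes were chosen for a large change or a small p, so few reversals were possible. Depth is unknown, and 3 dox- libraries limit what could be called.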

Other observations

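The 2 parental libraries, which carry no construct and are dox minus by their titles, were in no comparison. A table of the study heads them as dox+, so their doxycycline state is uncertain. Their levels are given here as values only, with no test. FPKM of U2AF1 was 114.9 and 102.8 in them, beside the uninduced range of 109.9 to 115.1. Of the 24 genes with the largest changes, 13 had both parental libraries short of the induced range. MUC16 was at 24.8 and 31.1 in the parental libraries, above the uninduced range of 15.2 to 18.8 and below the induced range of 57.1 to 102.2. G0S2 was at 74.9 and 82.4, between the ranges of 105.3 to 157.5 and 41.1 to 64.8. SYNE1 was at 18.9 and 18.1, KMT2A at 22.2 and 16.5 and FN1 at 36.6 and 43.3, near or below the uninduced libraries of the transduced lines.

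For some genes that fell, the parental libraries were at or near the induced level. EFHD2 was at 76.2 and 86.5 in the parental libraries, against 66.6 to 79.4 with and 137.1 to 139.7 without doxycycline. CYCS was at 100.5 and 87.1, inside the induced range of 72.8 to 115.9. MUC1 was at 373.5 and 364.4, above all 7 libraries of the transduced lines, whose highest was 239.4. The parental replicates differed from each other in genes of the ATF4 program, with ASNS at 7.96 and 47.1, NUPR1 at 8.50 and 29.2 and ATF4 at 110.3 and 266.9.

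Outside the protein-coding genes of at least 5 FPKM, 204 further genes in the fit were higher and 7 were lower at an adjusted p under 0.05 (limma-trend).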
